A study of Mus musculus with 4 samples.

Results

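The genes described here are 9 genes known from mast cells, basophils and eosinophils, granule-bearing cells of allergic and anti-parasite responses. They were named by function, as chains of the IgE receptor (Fcer1a, Ms4a2), granule proteases (Mcpt8, Cpa3, Gzmb), the enzyme of histamine synthesis (Hdc), eosinophil granule proteins (Prg2, Epx) and the receptor for the cytokine IL-33 (Il1rl1). Of the 9, 8 had a probe set that the platform's annotation gives to a single gene, among 19938 such genes in all, and each of the 8 had 1 such probe set. Il1rl1 was not analysed here. The values are the authors' RMA log2 expression values, and a difference of 1 on that scale is 2-fold.

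RNA came from mouse bone marrow cells of the C57BL/6 background, sorted as LSK cells, which lack lineage markers and carry Sca-1 and Kit, the fraction that holds blood stem cells and the earliest progenitors. The Hdac3-null LSK/Flt3- group had 2 arrays. Its mice carried Vav-Cre, a recombinase active in blood cells, with 1 floxed Hdac3 allele over a minus allele, written Hdac3Flox/- in the labels. Wild-type (WT) cells gave 1 array of the LSK/Flt3+ and 1 of the LSK/Flt3- fraction, and the labels do not say whether the wild-type mice carried Cre. Flt3 is the cytokine receptor that LSK cells gain as they take on lymphoid potential. Each array held cells pooled from 5 to 30 mice. The sources used here do not give the age and sex of the animals, or say if the null arrays stand for different mice, so the p-values cover the spread between these arrays alone, and that spread may be technical.

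Mast cells and basophils bind IgE through a receptor built of an alpha chain, encoded by Fcer1a, that holds the antibody, a beta chain, encoded by Ms4a2, that amplifies the signal, and a gamma chain, encoded by Fcer1g, that passes it on to the kinases Lyn and Syk. Cross-linking of the receptor releases granules that hold histamine and proteases. Both lineages arise in the marrow, where basophil and mast cell precursors are closely related to granulocyte-monocyte progenitors and to progenitors that use the transcription factors GATA1 and GATA2. LSK cells lie upstream of these lineages, so the values below are RNA of such genes in a progenitor fraction, not in mature cells of these lineages.

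Hdac3 itself had log2 levels of 5.71 and 5.04 on the null arrays, against 6.33 in the WT LSK/Flt3+ pool and 6.18 in the WT LSK/Flt3- pool. The sources used here do not say whether its probe set lies within the deleted stretch, and one outside it would check nothing. Kit was between 10.36 and 10.77 on the null arrays and at 10.11 and 10.25 in the WT LSK/Flt3+ and LSK/Flt3- pools, and Cd34 was at 9.77 and 9.90 on the null arrays against 10.58 and 10.34. Ly6a, which encodes Sca-1, was not analysed here. Xist, the RNA of the inactive X chromosome in female cells, stood at 10.84 and 9.67 on the null arrays, against 3.90 and 4.23 in the WT LSK/Flt3+ and LSK/Flt3- pools, while the 3 measured Y-linked genes were lower on both null arrays than on both wild-type arrays. Eif2s3y was at 7.33 and 6.08 on the null arrays, against 7.85 and 8.05, Kdm5d at 8.02 and 7.31 against 8.32 and 8.66, and Uty at 6.42 and 5.68 against 6.70 and 6.94, in the WT LSK/Flt3+ and LSK/Flt3- pools. A difference in the sex makeup of the pools cannot be told apart from genotype in any comparison with them. The arrays are bulk samples, in which fewer cells of a type and less RNA per cell cannot be told apart. The sources used here do not tell whether a probe set stood above background. With so few arrays the precision was low: over all genes, limma's standard error of a null difference had a median of 0.34.

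The alpha chain gene of the IgE receptor was the member farthest from WT LSK/Flt3- cells. Fcer1a had log2 levels of 6.51 on null replicate 1 and 7.44 on null replicate 2 (mean 6.98 ± 0.66, SD, n = 2), against 5.53 in the WT LSK/Flt3+ pool and 4.31 in the WT LSK/Flt3- pool. Both null arrays lay above both wild-type arrays, and the WT LSK/Flt3- array was the lowest of the 4. The log2 difference from WT LSK/Flt3- cells was 2.66 ± 0.42 (SE), 6.34-fold, and the difference from WT LSK/Flt3+ cells was 1.45 ± 0.42 (SE), 2.73-fold. Neither passed limma over all genes (adjusted p = 0.148 and 0.506). The beta chain gene Ms4a2 had levels of 5.89 and 6.07 on the null arrays (mean 5.98 ± 0.13, SD, n = 2), against 5.65 in the WT LSK/Flt3+ pool and 5.09 in the WT LSK/Flt3- pool. It too was higher on both null arrays than on either wild-type array, by 0.90 ± 0.33 (SE) from LSK/Flt3- cells and by 0.34 ± 0.33 (SE) from LSK/Flt3+ cells (adjusted p = 1 for each in limma). The gamma chain gene Fcer1g, which other Fc receptors of myeloid cells share, did not follow: it was at 6.14 and 6.99 on the null arrays, 7.81 in the WT LSK/Flt3+ pool and 6.76 in the WT LSK/Flt3- pool, so the null values lay on both sides of the LSK/Flt3- array.

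The promoters of both IgE receptor genes are shown because the letters AGATAA, one form of the site that GATA factors bind, occur in both. Each sequence is the 250 bases before the RefSeq start (GRCm38.p6), 5′ to 3′ on the gene's strand, for Fcer1a at chr1:173227230-173227479, minus strand, and for Ms4a2 at chr19:11623720-11623969, minus strand. Capitals mark AGATAA or TGATAA on either strand; a match on the opposite strand reads TTATCT or TTATCA.
Fcer1a: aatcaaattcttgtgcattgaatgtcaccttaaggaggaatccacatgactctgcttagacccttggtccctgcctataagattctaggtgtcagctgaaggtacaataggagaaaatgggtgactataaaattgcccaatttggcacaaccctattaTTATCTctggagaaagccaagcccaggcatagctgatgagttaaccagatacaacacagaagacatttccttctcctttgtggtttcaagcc
Ms4a2: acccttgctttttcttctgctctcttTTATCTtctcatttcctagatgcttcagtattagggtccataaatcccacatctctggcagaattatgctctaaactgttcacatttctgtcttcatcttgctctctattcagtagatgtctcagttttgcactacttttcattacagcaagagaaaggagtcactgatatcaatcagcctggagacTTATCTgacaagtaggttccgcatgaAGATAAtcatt
Of the 8 members with a promoter in the RefSeq table, Fcer1a, Ms4a2, Cpa3 and Il1rl1, 4 in all, held AGATAA or TGATAA in this window, and 16.6% of the 32851 promoters in the table held one. None of these matches overlapped a match to the other letters searched, GAGGAA (PU.1 type), CANNTG (E-box type) and TGTGGT (RUNX type), on either strand. GAGGAA was found for 2 of the 8 members, CANNTG for 7 and TGTGGT for 5, against 23.3%, 66.2% and 14% of all promoters. Il1rl1 had a further promoter, so the 8 members had 9. The member counts are thus by gene, while the shares are by promoter. A match is a run of letters and says nothing of whether a factor was bound.

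**Figure D1:**
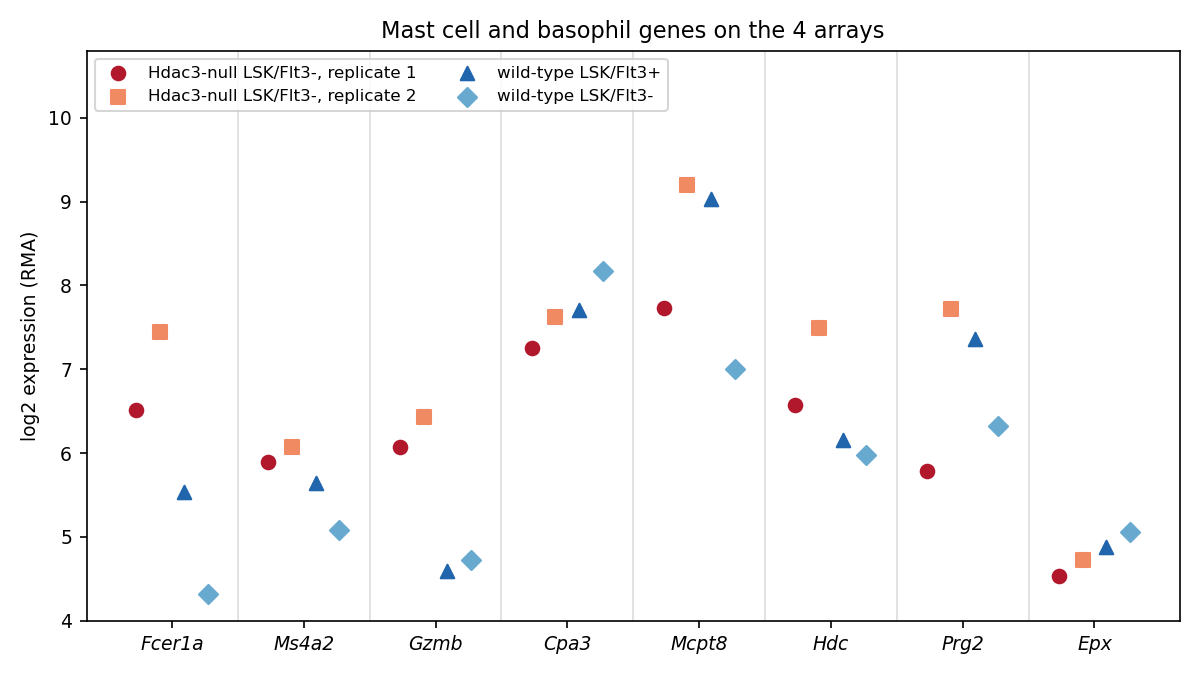
Log2 expression (vertical axis) of the 8 measured genes (horizontal axis) on the 4 arrays, 1 point per array. Fcer1a, Ms4a2, Gzmb and Hdc were higher on both null arrays than on both wild-type arrays, Cpa3 and Epx were lower on both, and Mcpt8 and Prg2 overlapped. Levels are compared within a gene only.

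Gzmb encodes granzyme B, a serine protease of cytotoxic lymphocytes that mast cells also make. Its log2 levels were 6.07 and 6.43 on the null arrays (mean 6.25 ± 0.26, SD, n = 2), against 4.59 in the WT LSK/Flt3+ pool and 4.72 in the WT LSK/Flt3- pool. The wild-type arrays lay within 0.13 of each other and both null arrays were more than 2-fold above both. The difference was 1.53 ± 0.33 (SE) from LSK/Flt3- cells (2.88-fold, limma adjusted p = 0.526) and 1.66 ± 0.33 (SE) from LSK/Flt3+ cells (3.16-fold, limma adjusted p = 0.115).

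Mcpt8 encodes the protease that marks basophils in the mouse. It had levels of 7.73 on null replicate 1 and 9.20 on null replicate 2 (mean 8.47 ± 1.04, SD, n = 2), against 9.04 in the WT LSK/Flt3+ pool and 7.01 in the WT LSK/Flt3- pool. The null replicates were 1.47 apart, and the LSK/Flt3+ array lay between them, so the genotypes overlapped. The mean difference was 1.46 ± 0.54 (SE) from LSK/Flt3- cells and -0.57 ± 0.54 (SE) from LSK/Flt3+ cells (limma adjusted p = 1 for each). Null replicate 1 was 0.72 above and replicate 2 was 2.19 above the LSK/Flt3- array.

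Cpa3, which encodes the carboxypeptidase of mast cell granules and is also transcribed in early progenitors, went the other way. It was at 7.25 and 7.62 on the null arrays (mean 7.44 ± 0.26, SD, n = 2), against 7.71 in the WT LSK/Flt3+ pool and 8.17 in the WT LSK/Flt3- pool. Both null arrays were lower than both wild-type arrays, though null replicate 2 and the LSK/Flt3+ array were only 0.09 apart. The difference was -0.73 ± 0.37 (SE) from LSK/Flt3- cells and -0.27 ± 0.37 (SE) from LSK/Flt3+ cells (limma adjusted p = 1 for each).

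The promoters of Gzmb and Cpa3 are shown as those of a pair of granule enzyme genes whose values lay on opposite sides of wild type. They cover the same 250 bases before the RefSeq start (GRCm38.p6), for Gzmb at chr14:56262335-56262584, minus strand, and for Cpa3 at chr3:20242182-20242431, minus strand, with the same use of capitals.
Gzmb: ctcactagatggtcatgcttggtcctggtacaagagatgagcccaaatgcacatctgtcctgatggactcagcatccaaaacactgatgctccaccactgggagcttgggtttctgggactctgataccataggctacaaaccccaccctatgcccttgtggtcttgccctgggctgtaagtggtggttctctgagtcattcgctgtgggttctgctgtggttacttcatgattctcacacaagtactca
Cpa3: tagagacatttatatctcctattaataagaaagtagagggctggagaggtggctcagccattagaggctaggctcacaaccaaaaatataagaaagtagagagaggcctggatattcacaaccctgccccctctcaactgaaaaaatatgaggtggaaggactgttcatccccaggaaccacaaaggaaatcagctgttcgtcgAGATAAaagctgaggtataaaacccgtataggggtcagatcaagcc
Cpa3 held AGATAA while Gzmb held neither form, and the IgE receptor genes, which were on the higher side in null cells, held it too. Il1rl1, which held both forms, was not measured. Whether these letters bear on the members' values was not tested.

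Mcpt8 and Gzmb lie in 1 cluster of serine protease genes on chromosome 14, with 7 protein-coding genes between them in the RefSeq order of GRCm38.p6. Next to Mcpt8 stands Ctsg, the gene of cathepsin G of neutrophil and monocyte precursor granules, and Gzme, Gzmd, Gzmg, Gzmn, Gzmf and Gzmc follow. Ctsg was at 10.27 and 10.73 on the null arrays, against 9.20 in the WT LSK/Flt3+ pool and 8.75 in the WT LSK/Flt3- pool, a difference of 1.75 ± 0.36 (SE) from LSK/Flt3- (limma adjusted p = 0.403). Both null arrays were more than 2-fold above both wild-type arrays. The 6 granzyme genes in between had mean differences from LSK/Flt3- of 0.08 for Gzme to 0.64 for Gzmc (limma adjusted p = 1 for each). Mcpt4, on the other side of Mcpt8, which encodes a chymase of connective tissue mast cells, was at 3.52 and 3.65 on the null arrays and at 3.80 and 3.77 in the WT LSK/Flt3+ and LSK/Flt3- pools. The larger differences were thus those of the end genes and Ctsg, with the granzyme genes between them nearer to the median difference of all genes, 0.09.

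**Figure D2:**
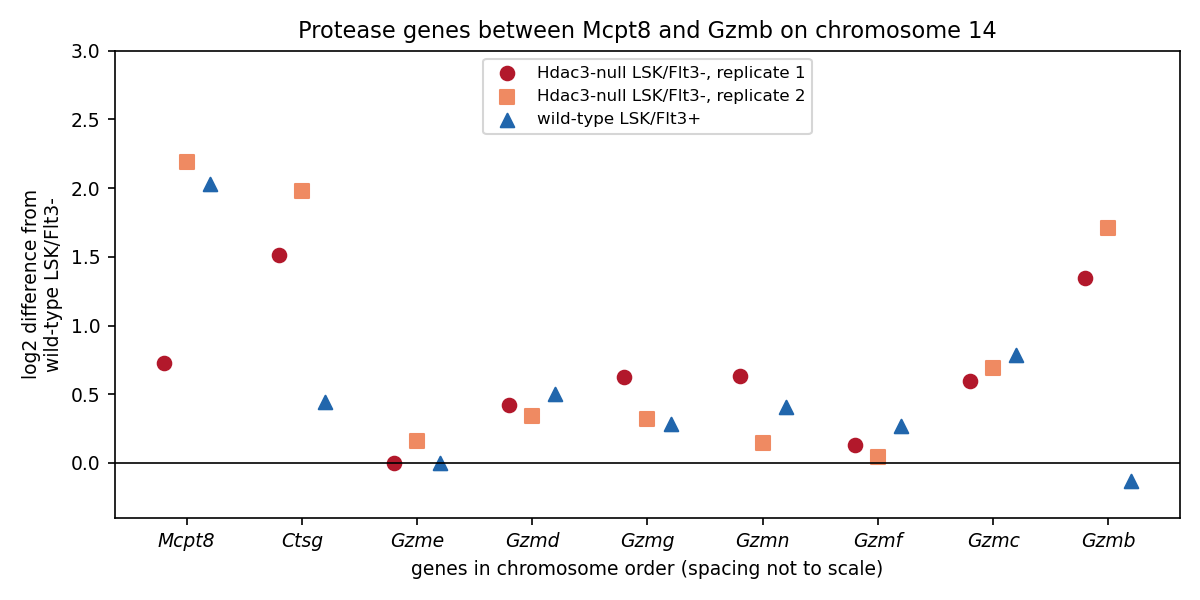
Log2 difference from the WT LSK/Flt3- array (vertical axis) for Mcpt8, Gzmb and the 7 protein-coding genes between them, in chromosome order (horizontal axis, spacing not to scale), for null replicates 1 and 2 and the WT LSK/Flt3+ array, 1 point per array. Gzmb and Ctsg were high on both null arrays, Mcpt8 was high on null replicate 2 and on the LSK/Flt3+ array, and the differences of Gzme to Gzmc were under 1.

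Position gave another case. Ms4a2 has Ms4a3 as its next protein-coding gene on chromosome 19 in the same assembly. Ms4a3, a gene of granulocyte-monocyte progenitors, was at 10.08 and 10.20 on the null arrays, against 7.34 in the WT LSK/Flt3+ pool and 7.03 in the WT LSK/Flt3- pool, and was the only one of 15 measured genes of the Ms4a family to pass limma as higher (3.11 ± 0.35, SE, adjusted p = 0.0321 from LSK/Flt3-, and adjusted p = 0.00931 from LSK/Flt3+). The neighbour on the other side, Ms4a6d, was at 4.44 and 4.40 on the null arrays, against 5.51 and 4.66, and the family's median difference from LSK/Flt3- was -0.09. In the same family Ms4a7 and Ms4a6b, known from macrophages and monocytes, fell against LSK/Flt3+ cells (-4.11, adjusted p = 0.000515, and -2.41, adjusted p = 0.0254, in limma), but not past the test against LSK/Flt3- cells (-0.71 and -1.34). No other measured direct neighbour of a measured member, apart from Ms4a3 and Ctsg, was as much as 1 from LSK/Flt3- cells. Il18r1, next to the unmeasured Il1rl1 on chromosome 1 and encoding a chain of the IL-18 receptor, was at 5.08 and 4.84 on the null arrays, against 6.87 and 6.54 in the WT LSK/Flt3+ and LSK/Flt3- pools (difference from LSK/Flt3- -1.58, limma adjusted p = 0.476).

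Hdc encodes histidine decarboxylase, the only enzyme that makes histamine. Its levels were 6.57 on null replicate 1 and 7.50 on null replicate 2 (mean 7.03 ± 0.66, SD, n = 2), against 6.16 in the WT LSK/Flt3+ pool and 5.97 in the WT LSK/Flt3- pool. Both null arrays were above both wild-type arrays, by 0.41 at the least. The difference was 1.06 ± 0.43 (SE) from LSK/Flt3- cells and 0.88 ± 0.43 (SE) from LSK/Flt3+ cells (limma adjusted p = 1 for each). Slc18a2, the transporter that loads histamine into granules, was at 8.74 and 7.92 on the null arrays, against 6.83 in the WT LSK/Flt3+ pool and 7.83 in the WT LSK/Flt3- pool; unlike Hdc, it was higher on null replicate 1 than on replicate 2. Hnmt, which breaks histamine down in cells, was at 5.06 and 4.48 on the null arrays, against 5.17 and 5.46, so both null arrays were lower.

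Prg2 and Epx encode eosinophil granule proteins, major basic protein and eosinophil peroxidase, and Prg2 is also transcribed in basophils. Prg2 was at 5.78 on null replicate 1 and 7.72 on null replicate 2 (mean 6.75 ± 1.37, SD, n = 2), against 7.36 in the WT LSK/Flt3+ pool and 6.32 in the WT LSK/Flt3- pool. The null replicates were the lowest and the highest of the 4 arrays, so no direction with genotype could be given (0.43 ± 0.64, SE, from LSK/Flt3- cells and -0.60 ± 0.64, SE, from LSK/Flt3+; limma adjusted p = 1 for each). Epx was at 4.54 and 4.72 on the null arrays (mean 4.63 ± 0.13, SD, n = 2), against 4.88 in the WT LSK/Flt3+ pool and 5.06 in the WT LSK/Flt3- pool. Both null arrays were below both wild-type arrays, within a span of 0.52 over the 4 arrays (-0.43 ± 0.30, SE, from LSK/Flt3- cells and -0.25 ± 0.30, SE, from LSK/Flt3+; limma adjusted p = 1 for each). Prg3, the neighbour and close relative of Prg2, lay between 5.27 and 5.41 on all 4 arrays and did not share the spread of Prg2.

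The main comparison, null against WT LSK/Flt3- cells, asked how these genes differ without Hdac3 in the same sorted fraction. By limma 0 of the 8 measured members passed at an adjusted p of 0.05 in either direction, where 0.0201% of all genes were called higher and 0% lower. At an unadjusted p under 0.05, 5 members (Fcer1a, Gzmb, Ms4a2, Mcpt8 and Hdc) were higher, where 1.1% of all genes were, and 0 were lower, where 1.3% were. Fcer1a and Gzmb, 2 of the 8, were at least 2-fold higher on both null arrays, where 0.251% of all genes were, and 0 were at least 2-fold lower on both, where 0.381% were. Ms4a2 lay just inside 2-fold, at 0.81 and 0.99 on null replicates 1 and 2. The median difference over the 8 was 0.98, with 6 above 0, beside a median of 0.09 over all genes, of which 65% were above 0. The share over all genes depended on the scaling between arrays: it was 45.9% with array medians centred, 49.1% after cyclic loess and 49.6% after quantile normalization, where the member median was 0.86 to 0.88 with 6 of 8 above 0. With only 1 residual degree of freedom, robust estimation of the spread called 1 member, Fcer1a (adjusted p = 0.00929), and the adjusted p of Fcer1a over the 7 other settings that could test it ran from that value to 0.294. Over all 19938 genes robust estimation called 25, where the fit as reported called 4.

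The same null arrays against WT LSK/Flt3+ cells differ in both genotype and sorted fraction, and the comparisons share the null arrays. Again 0 of 8 members passed limma, where 0.0351% of all genes were called higher and 0.281% lower. Fcer1a and Gzmb had an unadjusted p under 0.05, both higher, where 1.13% of all genes were, and 0 members were lower at that level, where 2.31% were. Gzmb was at least 2-fold higher on both null arrays (1.48 and 1.84), where 0.261% of all genes were, and Fcer1a fell just short on null replicate 1 (0.98 and 1.91). Of the members, robust estimation called Gzmb alone (adjusted p = 0.0243, and 0.142 at the highest over the settings). Over all 19938 genes robust estimation called 114, where the fit as reported called 63. The median over the members was 0.04, with 4 of 8 above 0, beside 0.05 over all genes, of which 56.9% were above 0. The member median was -0.02 after cyclic loess and -0.04 after quantile normalization, so its sign was not settled.

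**Figure D3:**
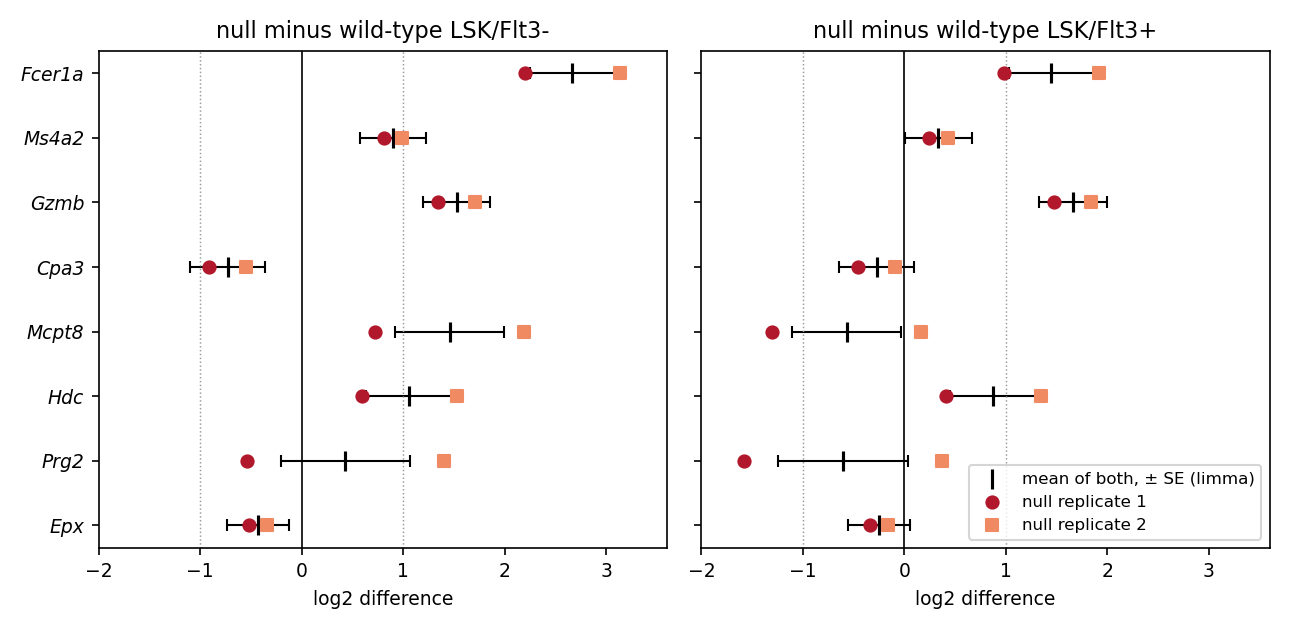
Log2 difference (horizontal axis) between null and WT LSK/Flt3- cells (left) and null and WT LSK/Flt3+ cells (right) for each measured gene (vertical axis). Coloured points are the null arrays apart, the black tick with its bar is the mean ± the limma SE, and dotted lines mark 2-fold. Fcer1a and Gzmb lay to the right in both panels, and the null arrays were farthest apart for Prg2 and Mcpt8.

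Counted over both wild-type arrays at once, a count chosen after the values were seen, 4 of 8 members (Fcer1a, Ms4a2, Gzmb, Hdc) were higher on both null arrays than on both wild-type arrays, where 23% of all genes were. Cpa3 and Epx, 2 of 8, were lower on both, where 11.7% of all genes were. Mcpt8 and Prg2 overlapped. These counts were 4, 2 and 2 under each of the 3 other scalings too, where 17% to 17.4% of all genes were above and 17.9% to 18.9% below.

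Taken apart, the null arrays differed from each other for these genes. All 8 measured members were lower on null replicate 1 than on replicate 2, where 35% of all genes were, and the median difference of all genes, replicate 1 minus replicate 2, was 0.14. Under the 3 other scalings all 8 were again lower on replicate 1, beside 53.9% to 60.9% of all genes. The gap was largest for Prg2 (-1.94) and Mcpt8 (-1.47), the 2 members at least 2-fold apart, where 1.46% of all genes were that much lower on replicate 1, and 0 members were that much higher on it, where 1.36% of all genes were. It was -0.93 for both Fcer1a and Hdc, and between -0.37 and -0.18 for Cpa3, Gzmb, Epx and Ms4a2. Against WT LSK/Flt3- cells the member median was therefore 0.66 on null replicate 1 and 1.46 on null replicate 2. Against WT LSK/Flt3+ cells it was -0.05 and 0.40. With null replicate 1 left out, replicate 2 alone was at least 2-fold from LSK/Flt3- cells for 5 members (Fcer1a, Mcpt8, Gzmb, Hdc and Prg2), and with replicate 2 left out, replicate 1 alone was so for Fcer1a and Gzmb. The share of all genes past this looser rule on 1 array was not counted, so these counts have no background beside them.

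Between the wild-type fractions, with 1 array each and so no replicate check, Mcpt8, Fcer1a and Prg2 were at least 2-fold higher in LSK/Flt3+ than in LSK/Flt3- cells, 3 of 8 where 0.923% of all genes were, and 0 members were at least 2-fold lower, where 0.176% were. The log2 difference was 2.03 for Mcpt8 (4.08-fold), 1.22 for Fcer1a (2.32-fold) and 1.03 for Prg2 (2.05-fold). Ms4a2 was 0.56 higher and Hdc 0.18 higher in LSK/Flt3+ cells. The differences were -0.13 for Gzmb, -0.18 for Epx and -0.46 for Cpa3. With the arrays centred on their medians, 2 members were at least 2-fold apart, Prg2 falling short.

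Mcpt8 and Prg2 thus shared a pattern, high on null replicate 2 and in LSK/Flt3+ cells and low on null replicate 1 and in LSK/Flt3- cells. Of all genes 12, or 0.0602%, were at least 2-fold higher on null replicate 2 than on replicate 1 and in LSK/Flt3+ than in LSK/Flt3- cells. This count was made after the values were seen and did not compare null with wild-type arrays. One was Prss34, a serine protease of basophils, at 5.66 on null replicate 1 and 7.36 on null replicate 2, 7.44 in the WT LSK/Flt3+ pool and 5.52 in the WT LSK/Flt3- pool. The others were Hpse, which encodes heparanase, Ccl3, Cd52, Clec12a, F13a1, Fam72a, H2-Aa, H2ac4 and Mapkapk2, genes of myeloid and antigen-presenting cells among them. For Ccl3, F13a1 and H2-Aa, null replicate 2 (6.00, 6.24 and 6.53) lay below the LSK/Flt3- array (7.96, 6.29 and 6.95), unlike Mcpt8 and Prg2. For Prss34 the null mean was 0.99 ± 0.58 (SE) from LSK/Flt3- cells and -0.93 ± 0.58 (SE) from LSK/Flt3+ cells (limma adjusted p = 1 for each), the same division as Mcpt8.

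For the members that spanned at least 1 on the log2 scale over the arrays, the nearest other genes were sought by the Euclidean distance between their 4 log2 values after each gene's own mean was subtracted. With 4 arrays such a distance is a description. Fcer1a was nearest to Ccr2, a monocyte chemokine receptor (distance 0.58), and Alas1, the enzyme that starts heme synthesis (0.72). Ccr2 was at 8.28 and 9.10 on the null arrays, against 6.54 in LSK/Flt3+ and 5.69 in LSK/Flt3- cells. Gzmb was nearest to H2-T10 (0.24) and Pvt1 (0.24), both close to level between the wild-type arrays and higher on both null arrays. Mcpt8 was nearest to Prss34 (0.45) and Hpse (0.72). Hdc was nearest to Ngp, a neutrophil granule gene (0.18), and Plscr2 (0.19). Prg2 was nearest to Coro1b (0.31) and Surf4 (0.34), an actin regulator and a cargo receptor of the secretory pathway that most cells use. Among the members themselves, the distance was 0.69 from Hdc to Ms4a2, 0.77 from Gzmb to Hdc and 0.94 from Mcpt8 to Prg2. It was 1.10 from Gzmb to Ms4a2 and 1.13 from Fcer1a to Gzmb.

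Genes that act with the members were mostly near the median of all genes. For this and the lists below, limma called 0.0201% of all genes higher and 0% lower against LSK/Flt3- cells. Against LSK/Flt3+ cells it called 0.0351% higher and 0.281% lower. Of 21 measured IgE receptor signalling genes, 0 passed limma in either comparison, and the median difference was 0.05 from LSK/Flt3- and -0.02 from LSK/Flt3+ cells. The adaptor gene Lat, the scaffold of this and the T cell receptor pathway, was the farthest, at 8.80 and 8.67 on the null arrays against 7.47 and 7.98 in LSK/Flt3+ and LSK/Flt3- cells (0.76 from LSK/Flt3-, limma adjusted p = 1). The log2 difference of the adaptor gene Lcp2 from LSK/Flt3- was 0.46. Syk, the kinase that starts the cascade, was at 7.69 and 7.32 on the null arrays against 7.51 and 7.49, with the wild-type values between the null ones.

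Of 18 other mast cell protease and granule genes, 0 passed, with a median of 0.21 from LSK/Flt3- cells. Against those cells 13 (72.2%) were above 0 and 5 below, where 65% of all genes were above 0. The share over all genes depended on the scaling. Among the mast cell chymase and tryptase genes, Cma1 was at 4.58 and 4.27 on the null arrays against 4.33 and 4.21, and Tpsb2 at 4.91 and 4.91 against 5.04 and 5.15, in the WT LSK/Flt3+ and LSK/Flt3- pools. The tryptase gene Tpsg1 was at 4.86 and 5.03 on the null arrays against 4.76 and 4.35, a difference from LSK/Flt3- of 0.59 ± 0.30 (SE, limma adjusted p = 1). Of 12 granzyme and partner genes, 0 passed in either comparison. Serpinb6b is a serine protease inhibitor gene of the family that holds granzyme B inhibitors. It was at 5.43 and 5.38 on the null arrays against 6.53 and 6.71 (-1.30 ± 0.33, SE, from LSK/Flt3-, limma adjusted p = 0.749). Serpinb9, in the same list, was at 4.41 and 4.19 on the null arrays against 4.34 and 4.48 (-0.19 from LSK/Flt3-). The log2 difference of Gzmc from LSK/Flt3- cells was 0.64.

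Of 16 histamine and lipid mediator genes, 1 passed. Ptgs2, the inducible cyclooxygenase of prostaglandin synthesis, fell against LSK/Flt3+ cells (6.08 and 5.76 on the null arrays against 8.27, log2 difference -2.36, limma adjusted p = 0.0249). Against LSK/Flt3- cells, at 6.81, its difference was -0.89 (adjusted p = 1). Lta4h, an enzyme of leukotriene synthesis, was at 8.22 and 8.12 on the null arrays against 7.39 and 7.27, or 0.90 from LSK/Flt3- (adjusted p = 1).

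Of 21 receptor and cytokine genes of mast cells and basophils, 0 passed. Against LSK/Flt3- cells 15 (71.4%) were above 0 and 6 below, where 65% of all genes were above 0. Against LSK/Flt3- cells the 2 largest differences in this list were those of Csf2rb, the beta chain shared by the IL-3, IL-5 and GM-CSF receptors, and Csf2rb2, in the mouse a beta chain of the IL-3 receptor alone. Csf2rb was at 8.06 and 7.97 on the null arrays, against 6.44 in LSK/Flt3+ and 6.22 in LSK/Flt3- cells (1.79 ± 0.35, SE, from LSK/Flt3-, limma adjusted p = 0.347), and Csf2rb2 at 7.58 and 7.47 against 6.19 and 5.87 (1.65 ± 0.35, SE, adjusted p = 0.476). Both null arrays were more than 2-fold above both wild-type arrays for both genes. Against LSK/Flt3+ cells the IL-18 receptor genes were farther, in the other direction: the log2 difference was -2.16 ± 0.45 (SE) for Il18rap (limma adjusted p = 0.141) and -1.91 ± 0.33 (SE) for Il18r1 (adjusted p = 0.0559), beside 1.58 for Csf2rb and 1.33 for Csf2rb2. Il3ra, the alpha chain that binds IL-3, was between 6.19 and 6.38 on all 4 arrays. Of 12 measured genes of the IL-33 receptor pathway, the ligand gene Il33 and inhibitors among them, 0 passed. Irak3, an inhibitory kinase of that pathway, had a log2 difference of 1.11 and Rnf31 one of 0.21 from LSK/Flt3- cells (adjusted p = 1 for each).

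Of 22 transcription factor genes of these lineages, 0 passed, with a median of -0.16 from LSK/Flt3- cells. Against those cells 8 (36.4%) were above 0 and 14 below, where 65% of all genes were above 0, a share that depended on the scaling. Gata2, needed for mast cells and basophils, was at 7.65 and 8.13 on the null arrays, against 6.88 and 7.25 in LSK/Flt3+ and LSK/Flt3- cells, higher on both null arrays. Gata1 was at 5.42 on null replicate 1 and 7.09 on null replicate 2, against 6.03 and 6.42, with the null arrays on either side, as for Prg2. Cebpa, a granulocyte factor, and Runx1 each had a log2 difference of 0.76 from LSK/Flt3- cells, and Mitf, a mast cell factor, was at 5.88 and 4.92 on the null arrays against 5.65 and 5.60. Of 6 measured eosinophil genes, 0 passed, and the log2 difference from LSK/Flt3- was 0.72 for Siglecf, an eosinophil surface lectin, and 0.69 for Cebpe, a factor of late granulocytes.

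**Figure D4:**
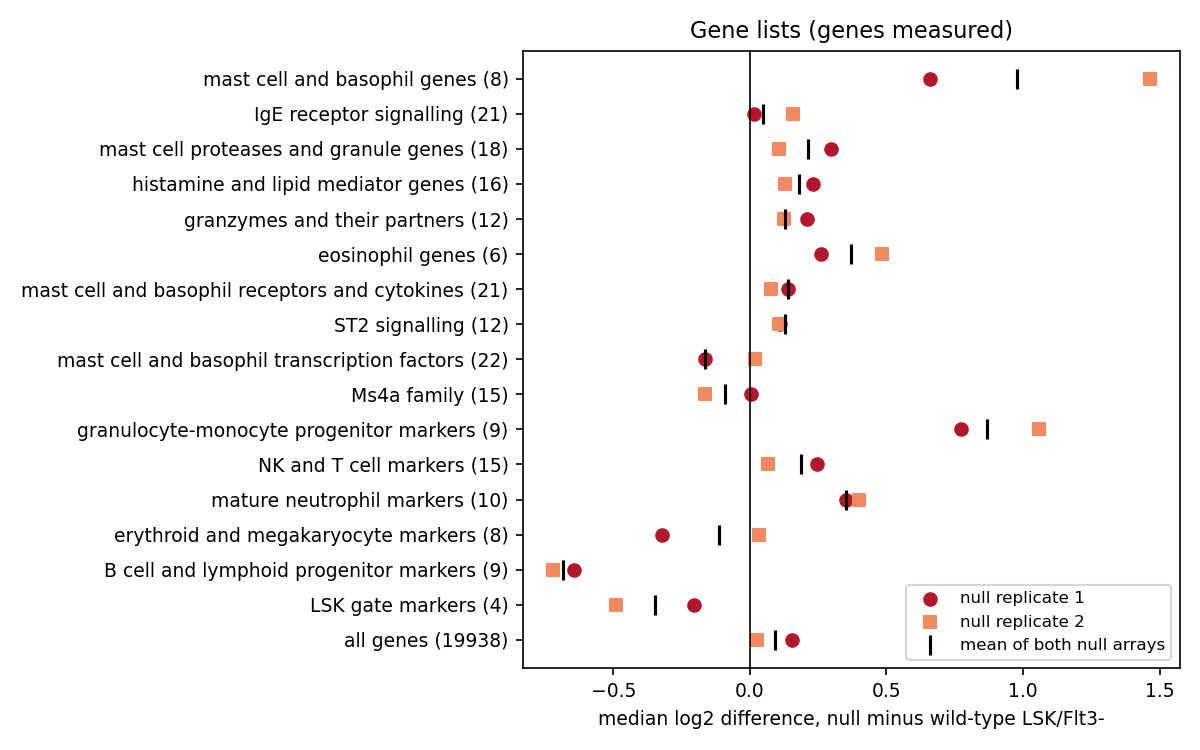
Median log2 difference from WT LSK/Flt3- cells (horizontal axis) over the measured genes of each list (vertical axis, number of genes in brackets), for null replicates 1 and 2 and for their mean. The mast cell and basophil genes had medians of 0.66 and 1.46, the granulocyte-monocyte progenitor markers 0.77 and 1.06, and all genes 0.15 and 0.03.

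Markers of other cell types were read beside the members. All 9 measured granulocyte-monocyte progenitor markers were above 0 against LSK/Flt3- cells, where 65% of all genes were, with a median of 0.87. Under each of the 3 other scalings 8 of 9 were, Csf1r falling below 0, beside 45.9% to 49.6% of all genes. Of the 9 as deposited, 1 passed limma (Ms4a3), where 0.0201% of all genes were called higher, and 6 were higher at an unadjusted p under 0.05, where 1.1% of all genes were. Their mean level was 7.91 and 8.30 on null replicates 1 and 2, against 7.52 in the WT LSK/Flt3+ pool and 6.88 in the WT LSK/Flt3- pool. Fcer1a, Ms4a2 and Hdc had the same order over the arrays. The members' mean level was 6.29 and 7.09 against 6.36 and 5.83. In this list Csf1r, the receptor for the macrophage growth factor, fell against LSK/Flt3+ cells (-2.34, limma adjusted p = 0.0250). The part of the progenitor markers in the members' differences was not tested.

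Granzyme B is also a lymphocyte protein, and the 15 NK and T cell markers had mean levels of 4.71 and 4.61 on the null arrays, against 4.66 in LSK/Flt3+ and 4.45 in LSK/Flt3- cells. The killer cell genes Gzma (3.68 and 3.50 against 3.43 and 3.93) and Prf1 (5.96 and 5.84 against 5.81 and 5.71) were within 2-fold over the 4 arrays. The marker farthest from LSK/Flt3- was Nkg7, a granule membrane gene, at 8.58 and 10.06 on the null arrays, against 8.76 and 8.21 (1.11, limma adjusted p = 1), and then Cd8a (0.51). Of the 15, 0 passed in either comparison. Against LSK/Flt3- cells 12 (80%) were above 0, where 65% of all genes were, a share that depended on the scaling. The part of such cells in the Gzmb values was not tested.

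The 10 neutrophil markers had mean levels of 5.54 and 5.67 on the null arrays, against 5.26 in LSK/Flt3+ and 5.41 in LSK/Flt3- cells, with log2 differences from LSK/Flt3- of -1.36 for S100a8 and 1.25 for Ngp, and 0 past limma. The 8 erythroid and megakaryocyte markers averaged 6.33 on null replicate 1 and 7.62 on null replicate 2, against 7.16 and 7.52. Replicate 1 minus replicate 2 was -4.49 for Car1, -2.73 for Pf4, -1.27 for Rhag and -1.18 for Vwf. For Klf1, Epor, Itga2b and Gp9 it lay between -0.38 and 0.03. Vwf was higher on both null arrays, at 6.93 and 8.11 against 5.78 and 6.22. Car1, an enzyme gene of the red cell lineage, stood at 6.44 on null replicate 1 and 10.92 on null replicate 2, against 11.37 and 11.81, and Rhag was at 4.80 and 6.07 against 6.82 and 7.61. The gap between the null arrays thus ran the same way for Car1 and Rhag as for Mcpt8 and Prg2, and its part in the members' values was not tested. The 9 B cell and lymphoid progenitor markers had mean levels of 5.39 and 5.13 on the null arrays, against 6.86 and 6.18, and 3 of them (Dntt, Flt3 and Il7r) fell past limma against LSK/Flt3+ cells, and 0 against LSK/Flt3- cells. Flt3 RNA was at 7.84 and 7.02 on the null arrays, against 10.07 and 9.18 in the WT LSK/Flt3+ and LSK/Flt3- pools. The makeup of the sorted cells was not tested.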

How the data were processed

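The deposited table holds log2 expression per probe set. The authors' tools were RMA and affy 1.23, according to the submitters' processing notes; no genome build or scan date is given. Medians over all probe sets were 5.60 and 5.30 on the null arrays, 5.36 for the WT LSK/Flt3+ and 5.32 for the WT LSK/Flt3- array, so the scaling is not settled. Of 35556 probe sets, the 21789 with a single symbol in the platform annotation were kept, and the one with the highest mean stood for each of 19938 genes. Limma 3.58.1 (R 4.3.3) fitted all 4 arrays in 3 groups with a mean-dependent prior, on 1 residual and 9.01 prior degrees of freedom: the spread of the single wild-type arrays is taken from the null pair. Tests were two-sided, with Benjamini-Hochberg adjustment over all genes at 0.05. The wild-type fractions were compared without a test. Alternatives changed the scaling, the probe set per gene, a filter on low values, the estimate of spread, the arrays in the fit and the null arrays used.

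The members and 16 further lists were chosen with earlier results of these data known. The lists hold 212 genes, 193 of them measured; 5 with only a shared probe set and 14 that the annotation does not name were not analysed. Named were the members, list genes past limma in either comparison, the 2 of each list farthest from WT LSK/Flt3- cells and the 2 nearest genes by pattern. Others in the text were chosen by role, place or pattern after their values were seen.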

Additional observations from a re-analysis of the deposited data

How the results depend on the processing

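Under 8 other settings of the fit, 0 of the 120 member differences that could be fitted changed sign and 118 kept their side of the threshold; the other 2 passed with robust estimation, which called 1 member instead of 0 in each null comparison. The cause was not tested. Over all genes, calls against WT LSK/Flt3- cells were 4 as reported, 2 after quantile normalization, 2 with array medians centred and 25 with robust estimation. Against WT LSK/Flt3+ cells they were 63 as reported, 114 after cyclic loess, 99 with medians centred, 114 with robust estimation and 22 over genes whose mean level reached 6. That filter leaves out 4 of the 8 members, Fcer1a and Gzmb among them, so the count of members 2-fold or more from wild type on each null array became 0 in both comparisons, where 2 and 1 are reported. Centring put the median null difference of all genes from LSK/Flt3- cells at -0.02, against 0.09 as deposited. With 1 null array left out no test is possible for lack of residual degrees of freedom. The count of members 2-fold or more from wild type was then 2 to 5 against LSK/Flt3- and 3 against LSK/Flt3+ cells. The 3 were not the same: Fcer1a, Gzmb and Hdc, all higher, on replicate 2 alone. On replicate 1 alone they were Gzmb, higher, and Mcpt8 and Prg2, lower. These counts on 1 null array have no share over all genes beside them, as none was counted. With a null replicate left out, 3 differences changed sign: Prg2 from LSK/Flt3- ran from -0.54 to 1.40, Prg2 from LSK/Flt3+ from -1.58 to 0.37, and Mcpt8 from LSK/Flt3+ from -1.30 to 0.17. No paired analysis was possible because the wild-type groups have 1 array each and carry no replicate number. The precision is limited by 4 arrays, and signal over background is not known.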
